A study of Homo sapiens with 4 samples.

Results

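Cytosolic ribosomal protein genes encode the proteins of the small (40S) and large (60S) subunits of the ribosome that translates messages in the cytoplasm. Members were taken by gene symbol: RPSA, every RPS or RPL symbol with a digit, and RPLP0, RPLP1 and RPLP2, without the S6 kinase genes, hyphenated symbols and symbols of pseudogenes. This rule fitted 86 of the 18134 listed genes, and 83 had at least 10 estimated reads in each of the 4 libraries. The 83 members comprised 32 small subunit genes and 51 large subunit genes, 3 of which form the P stalk. RPL3L, RPL10L and RPS4Y1 fell below the read minimum and were not compared.

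PC9 cells are a long-established line of human lung adenocarcinoma. The study compared PC9 cells that stably carried a lentiviral pLKO.1 short hairpin RNA against TPX2, a spindle assembly factor that activates Aurora kinase A (shTPX2), with PC9 cells that carried a negative control hairpin in the same vector (shNC), both after selection with an antibiotic. Each group had 2 libraries, whose labels name no batch, and the question was how partial depletion of TPX2 alters the transcriptome. The labels do not say that the 2 libraries of a group came from separate cultures, so p-values measured the spread between these libraries only, which may be technical. The RNA came from whole cultures, so fewer cells expressing a gene and less of its RNA per cell could not be told apart.

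Ribosomal protein genes are transcribed at high rates in growing cells, and their products are needed in equal numbers because each ribosome holds a single copy of most of them. Their mRNAs start with a C followed by a run of pyrimidines, the 5′ terminal oligopyrimidine (5′-TOP) motif, through which the kinase mTOR controls how strongly they are translated by way of LARP1 and the eIF4E-binding proteins. mRNA level and translation are therefore regulated separately, and only mRNA level was measured here. Excess ribosomal proteins such as RPL5 and RPL11 bind MDM2, which links ribosome assembly to p53.

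The annotated starts of these genes are shown first because the pyrimidine run at the start is the feature the genes share and the symbol rule did not use. RefSeq promoter entries on GRCh38.p14 matched 67 of the 83 members at 83 annotated starts, and RPL5, RPL7, RPL8, RPL23, RPL23A, RPL30, RPL37, RPL39L, RPS2, RPS15A and RPS20 were among the 16 members with no entry. Each line gives 40 bases of the coding strand, in which base 21 is the annotated start, and capitals mark the run of at least 5 C or T bases nearest to it. The first 4 genes are the ones that met the criteria of the study described below, the next 2 are among the genes with the lowest fold changes, and the others are a P stalk gene and 2 members of paralog pairs.
RPL12, chr9:127451387-127451426, minus strand: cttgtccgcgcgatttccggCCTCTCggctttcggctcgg
RPL27, chr17:42998399-42998438, plus strand: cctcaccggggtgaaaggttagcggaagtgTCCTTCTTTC
RPS26, chr12:56041898-56041937, plus strand: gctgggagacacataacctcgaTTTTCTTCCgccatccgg
RPL36AL, chr14:49620607-49620646, minus strand: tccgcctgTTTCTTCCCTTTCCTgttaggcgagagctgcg
RPS12, chr6:132814549-132814588, plus strand: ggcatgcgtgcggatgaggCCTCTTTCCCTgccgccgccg
RPL27A, chr11:8682772-8682811, plus strand: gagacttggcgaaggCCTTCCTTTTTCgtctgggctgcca
RPLP0, chr12:120201092-120201131, minus strand: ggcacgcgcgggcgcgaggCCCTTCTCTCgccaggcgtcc
RPL36A, chrX:101390991-101391030, plus strand: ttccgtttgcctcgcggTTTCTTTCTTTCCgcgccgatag
RPL39, chrX:119791611-119791650, minus strand: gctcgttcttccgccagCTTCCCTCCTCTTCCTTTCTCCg

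A C at the annotated start followed by 4 bases that were each C or T, read on the coding strand only, was present for 47 of the 67 members (70.1%), against 5.1% of the 27305 genes with a promoter entry and 6 of 70 mitochondrial ribosomal protein genes (8.6%). Within 20 bases of the start, a run of at least 8 C or T bases was present for 58 of the 67 members (86.6%) and 20.9% of all genes. RPL12, RPS12, RPL27A, RPLP0, RPL36A and RPL39 held the C start in the windows above. In RPL27 and RPS26 the run lay 10 and 2 bases downstream of the annotated start, and in RPL36AL it covered the start without a C followed by 4 C or T bases there. A match to these letters is a description of the annotated start and not a measured cap site. Neither feature was present at any annotated start of the paralogs RPL7L1, RPL26L1 and RPS27L, nor of RPL3, RPL6 and RPS4X. The paralog RPL22L1 had both features, and RPL36AL had the run of at least 8.

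In the GENCODE v29 annotation of GRCh38 the members lay on 21 chromosomes, with 12 on chromosome 19 and 9 on chromosome 3. A small nucleolar RNA gene, whose RNA guides modification of ribosomal RNA, lay inside 28 of the 83 members on the same strand (33.7%), against 1.28% of 19936 protein-coding genes. Pseudogenes named after a member existed for 77 of the 83, 1145 in all, with a median of 9 and up to 91 for RPL23A. RPL12 had 50 of them, RPS26 had 30, RPL27 had 1 and RPL36AL had none. How reads that fit both a member and its pseudogenes were shared out is not given in the sources used here, so single values of genes with many copies carry that uncertainty.

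TPX2 mRNA, the target of the hairpin, was measured at 55.0 and 112 TPM (a level normalized for transcript length and for the library total) in shNC 1 and 2 and at 43.4 and 43.8 TPM in shTPX2 1 and 2. Both shTPX2 libraries were below both shNC libraries, and shNC 1 was much nearer to them than shNC 2. The fitted log2 fold change was -0.81 ± 0.32 (SE, n = 2 per group; edgeR unadjusted p = 0.0403, adjusted p = 0.618). It was -0.25 without shNC 2 and -1.22 without shNC 1. Estimated reads summed to 20906441 to 21972583 per library, so depth was close to even. The epithelial keratins KRT8 and KRT18 stood at 8228 to 11388 and 7136 to 9007 TPM in the 4 libraries, while the lung lineage markers NKX2-1, NAPSA and SFTPB did not exceed 1.67 TPM in any library. The 11 epithelial and lung markers summed to 20500 and 28100 TPM in shNC and to 24400 and 26300 TPM in shTPX2. The 8 markers of immune, endothelial and stromal cells summed to 141 and 248 TPM in shNC and to 183 and 202 TPM in shTPX2, most of it CD68, and DCN was at 0 in 3 libraries. The part of these markers in the results was not tested.

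Ribosomal protein mRNA was among the most abundant in PC9 cells. The members together took 6.30% and 5.88% of the estimated reads in shNC 1 and 2 and 6.70% and 5.67% in shTPX2 1 and 2. On the TPM scale they took 16.7% and 15.7% in shNC and 17.3% and 14.6% in shTPX2. The highest and the lowest library were both shTPX2 libraries, so the groups overlapped and the spread within shTPX2 exceeded the difference between the groups. The share of reads was 6.09% ± 0.295 in shNC and 6.18% ± 0.733 in shTPX2 (SD, n = 2), a difference of 0.0968 percentage points (exact two-sided permutation p = 1.0, where 0.333 is the smallest p that 2 against 2 libraries can give). The ratio of summed small subunit to summed large subunit TPM was 0.742 and 0.715 in shNC and 0.741 and 0.722 in shTPX2 (exact two-sided permutation p = 1.0).

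**Figure D1:**
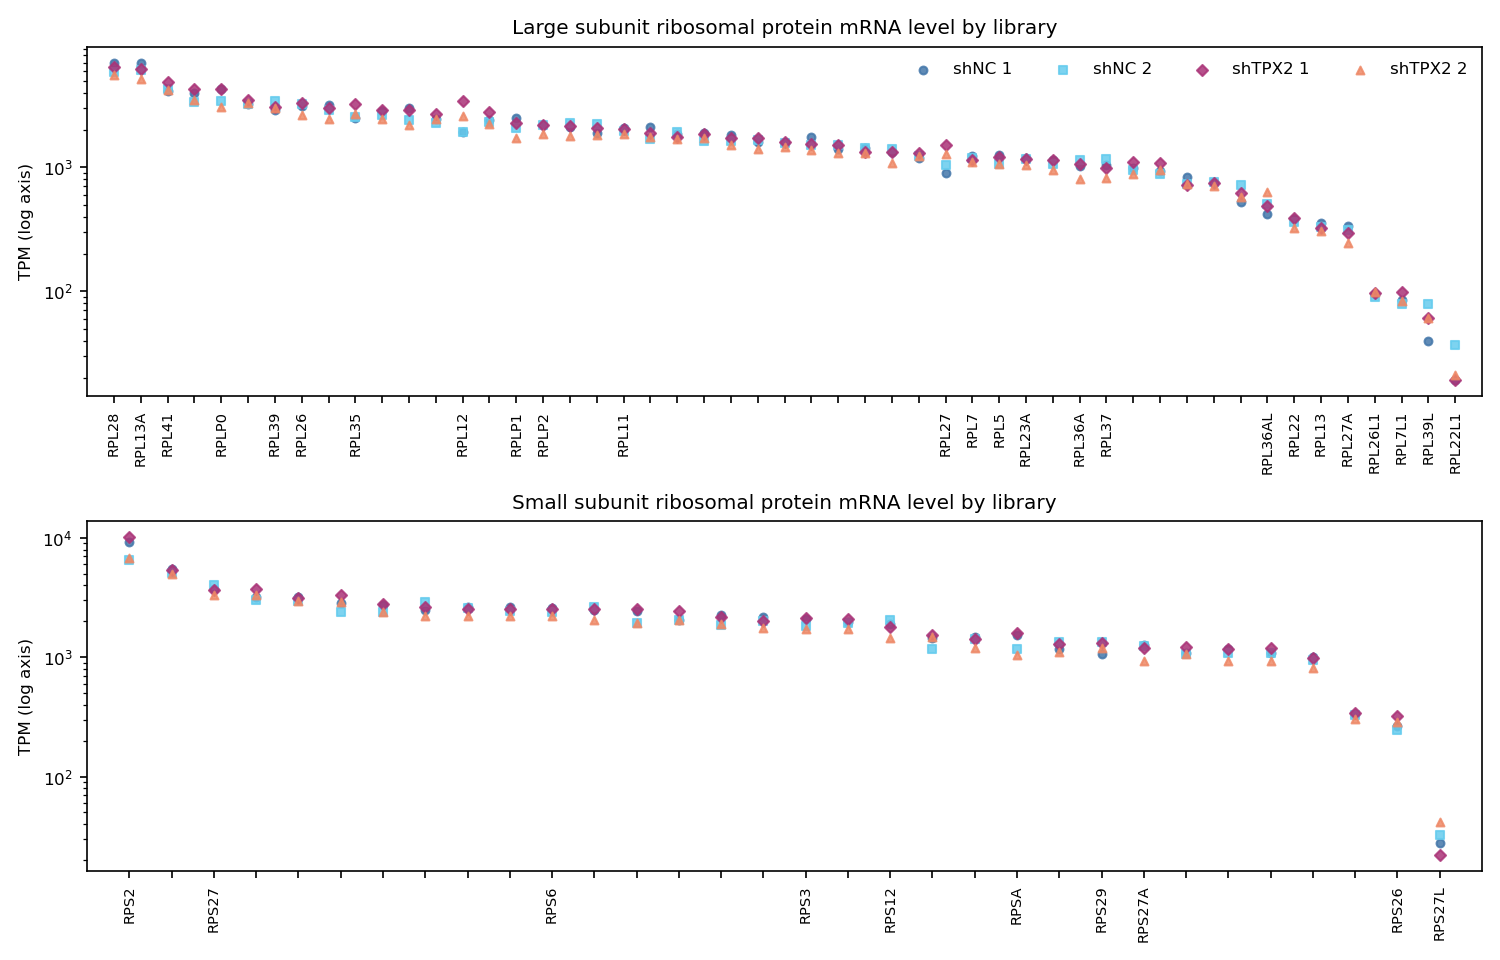
Level of each of the 83 ribosomal protein genes in TPM (log axis) in shNC 1 (circles), shNC 2 (squares), shTPX2 1 (diamonds) and shTPX2 2 (triangles), large subunit above and small subunit below, ordered by mean level, with genes described in the text labelled. Most genes lie within a narrow band, 65 of them above a mean of 1000 TPM, and the tail at the right holds the paralogs RPL26L1, RPL7L1, RPL39L, RPL22L1 and RPS27L.

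The mean level over the 4 libraries ran from 24.2 TPM for RPL22L1 to 8140 TPM for RPS2, with a median of 1770 TPM, and 65 of the 83 members exceeded 1000 TPM. RPS2, a small subunit protein at the mRNA entry channel, was measured at 9213 and 6471 TPM in shNC cells and 10119 and 6768 TPM in shTPX2 cells. RPL28, a large subunit protein, was measured at 6955 and 5904 TPM in shNC cells and 6426 and 5547 TPM in shTPX2 cells. RPL13A, which also acts outside the ribosome in interferon-induced silencing of translation, had 6928 and 6069.7 TPM in shNC cells and 6240 and 5118 TPM in shTPX2 cells. In these 3 genes library 1 was above library 2 in each group and the groups overlapped, so the order of RPL28 and RPL13A was within their spread. RPL41, which encodes the smallest ribosomal protein, had 4091 and 4314 TPM in shNC cells and 4904 and 4189.8 TPM in shTPX2 cells. Its groups overlapped on this scale.

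Levels in TPM rest on the length used for each gene, which was recovered from the reads, the FPKM values and the library totals. This length ranged from 324 bases for RPS29 to 4931 bases for RPL27A with a median of 704, exceeded 2000 bases in 7 members, and varied by more than 3% between libraries in only 2 members (RPL28 and RPS29). RPL27A therefore held rank 32 of 83 by estimated reads and rank 77 by TPM, and RPL13, with a length of 4564 bases, held ranks 31 and 75. The ratio between groups of a single gene is not touched by a length that is the same in every library, whereas shares summed over genes are.

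The libraries of a group differed from each other for these genes as a block. After TMM scaling, which sets the libraries to a common level through the bulk of the genes, 80 of the 83 members were higher in shTPX2 1 than in shTPX2 2, and 59 were higher in shNC 1 than in shNC 2. The median difference was 0.25 on the log2 scale between the shTPX2 libraries and 0.09 between the shNC libraries. The exceptions in shTPX2 were the paralogs RPS27L, RPL36AL and RPL22L1, which were higher in shTPX2 2. RPSA (the 40S protein also known as the laminin receptor) and RPS2 differed most of the 80, by 0.63 and 0.62 on the log2 scale. The median absolute difference between groups was 0.09, smaller than the median absolute difference within shNC (0.15) or within shTPX2 (0.26). The group difference rests on 2 libraries per group and the others on single libraries, so it would tend to be smaller without any group effect. A group difference larger than both differences within a group was found for 12 members (14.5%, against 26.9% of all tested genes).

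**Figure D2:**
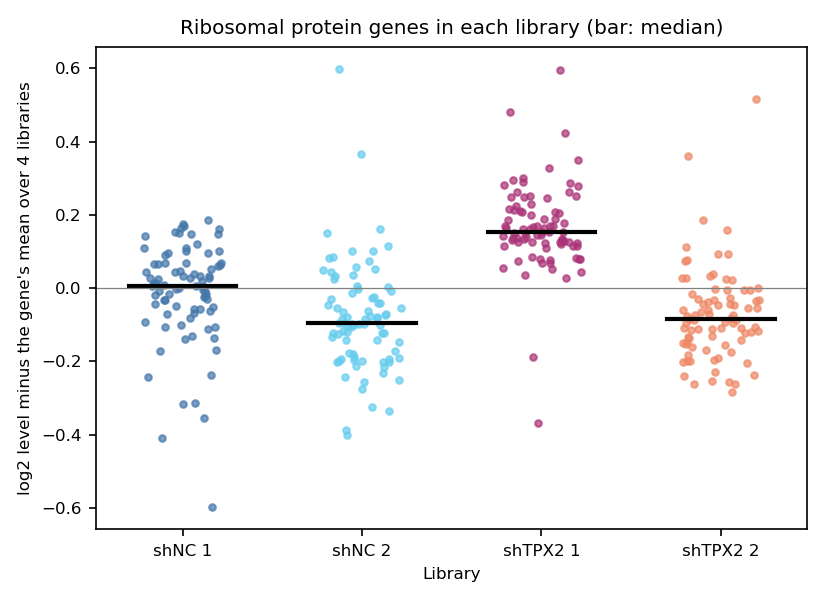
Log2 level of each of the 83 genes in each library after TMM scaling, minus the mean of that gene over the 4 libraries, with a bar at the median. The genes sit highest in shTPX2 1 (median 0.15), while shTPX2 2 (median -0.09) lies at the level of shNC 2 (median -0.10) and shNC 1 lies between them (median 0.01).

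No ribosomal protein gene differed between shTPX2 and shNC at an adjusted p under 0.05 (edgeR quasi-likelihood test with Benjamini-Hochberg adjustment over 14048 genes), where the smallest adjusted p of a member was 0.579. The share of all tested genes past that limit was also 0%, and DESeq2 called 111 genes, none of them a member. At an unadjusted p under 0.05, edgeR and DESeq2 each called 2 members, RPL12 and RPL27, both higher in shTPX2. That is 2.41% of the members, against 3.13% of all tested genes called higher and 4.9% called lower. The share called higher was near the background. The share called in either direction was below it (2.41%, against 8.03% of all tested genes). The criteria of the study are limma after voom, a p no larger than 0.1 and a log fold change of 0.3 or more. They were read here as a p without adjustment and as the log2 scale in either direction. Under them 4 members were higher, RPL12, RPL27, RPS26 and RPL36AL, and none was lower. That is 4.82% of the members, against 6.24% of all genes higher and 8% lower.

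RPL12 (NCBI gene 6136, chr9:127447674-127451405 in GENCODE v29) encodes a large subunit protein at the base of the P stalk. It was measured at 1932 and 1923 TPM in shNC cells and 3426 and 2601 TPM in shTPX2 cells. Both shTPX2 libraries were above both shNC libraries, which were nearly equal, and the shTPX2 libraries stood well apart from each other. Its log2 fold change was the largest of the 83, 0.77 ± 0.22 (SE, n = 2 per group), or 1.71-fold (edgeR unadjusted p = 0.0104, adjusted p = 0.579). RPL27 (NCBI gene 6155, chr17:42998273-43002959), a large subunit protein gene, was measured at 899 and 1034 TPM in shNC cells and 1526 and 1282 TPM in shTPX2 cells. The groups did not overlap, and the log2 fold change was 0.67 ± 0.19 (SE, n = 2 per group), or 1.59-fold (edgeR unadjusted p = 0.0111, adjusted p = 0.579). After TMM scaling most members were highest in shTPX2 1. Without that library the log2 fold changes were 0.54 for RPL12 and 0.52 for RPL27.

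RPS26 (NCBI gene 6231, chr12:56041351-56044697), a small subunit protein at the mRNA exit channel whose gene is mutated in Diamond-Blackfan anaemia, was measured at 265 and 247 TPM in shNC cells and 320.5 and 284 TPM in shTPX2 cells. The groups did not overlap, although shNC 1 and shTPX2 2 were close, and the log2 fold change was 0.37 ± 0.17 (SE, n = 2 per group; edgeR unadjusted p = 0.0784, adjusted p = 0.662). RPL36AL (NCBI gene 6166, chr14:49618519-49620685), the autosomal paralog of RPL36A, was measured at 417 and 504 TPM in shNC cells and 488 and 629 TPM in shTPX2 cells. On the TPM scale shNC 2 lay above shTPX2 1, while after TMM scaling both shTPX2 libraries were above both shNC libraries. The log2 fold change was 0.40 ± 0.19 (SE, n = 2 per group; edgeR unadjusted p = 0.0805, adjusted p = 0.666), and it was 0.23 without shTPX2 2 (edgeR unadjusted p = 0.398).

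**Figure D3:**
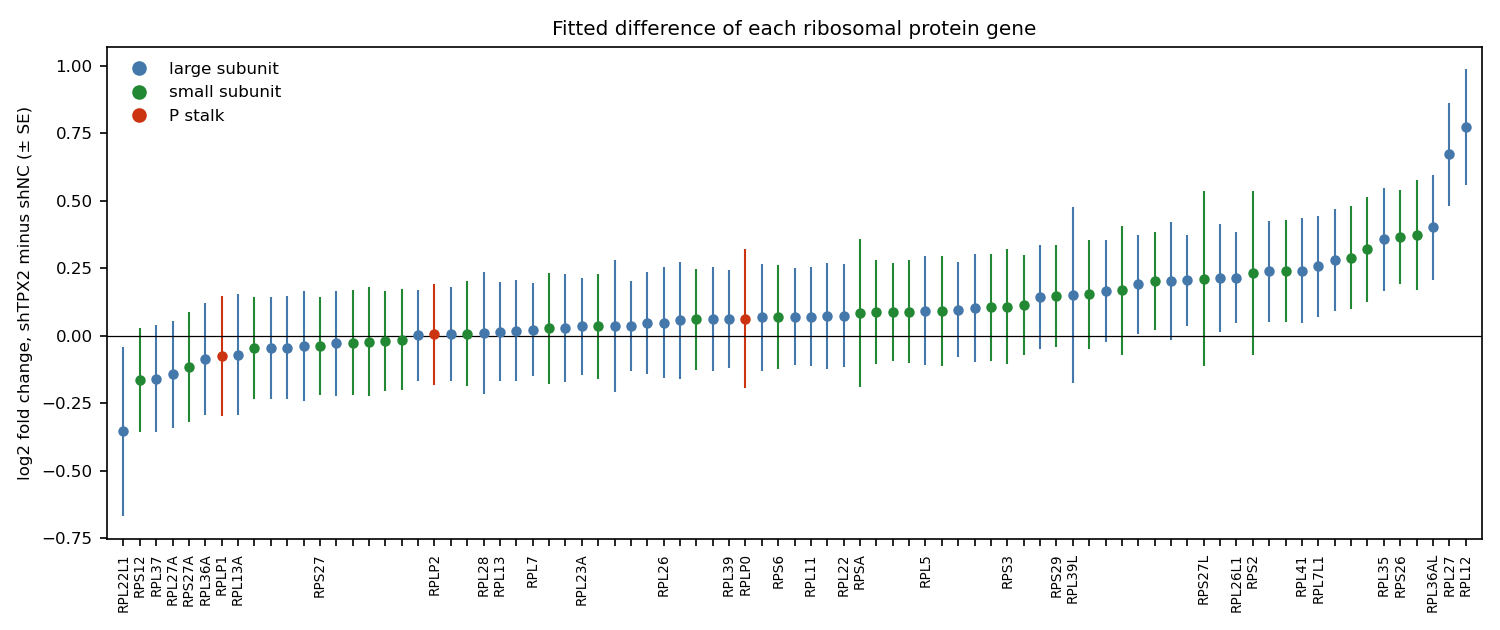
Fitted log2 fold change (shTPX2 minus shNC) of each of the 83 ribosomal protein genes with its standard error, ordered by value and coloured by subunit, with genes described in the text labelled. Most points lie within 1 standard error of 0, and RPL12 and RPL27 stand apart at the right at 0.77 and 0.67.

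Around these genes the fold changes were small. Of the 83 members 75 had a log2 fold change under 0.3 in size (90.4%, against 64.3% of all tested genes). Above 0 were 65 members (78.3%, against 48.8% of all tested genes), and 18 were below it. The median was 0.07 (0.09 for the small subunit and 0.06 for the large subunit), against -0.01 over all tested genes. The sign of the member median depended on the scaling and on single libraries. With library size alone it was -0.001, where the median over all tested genes was -0.08, so the members still lay above that median. With quantile normalization it was -0.04, against 0.02 over all tested genes. It ran from -0.05 without shTPX2 1 (against -0.02) to 0.18 without shTPX2 2 (against -0.01). On the TPM scale the median ratio of the group means was -0.06 for the members and -0.12 for all tested genes, a shift of the whole scale. A lower mean TPM in shTPX2 was thus found for 56 of the 83 members and for 9269 of the 14048 tested genes. After TMM scaling 17 members had both shTPX2 libraries above both shNC libraries (20.5%, against 19.4% of all tested genes) and none had both below (against 20.2%). On the TPM scale these counts were 11 above (against 10.7% of all tested genes) and 13 below (against 30.3%), so the absence of members below also depended on the scaling.

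The next largest values belonged to genes that passed no criterion. RPL35, a protein at the rim of the 60S exit tunnel, had 2487 and 2534 TPM in shNC cells and 3217 and 2676 TPM in shTPX2 cells, with a log2 fold change of 0.36 ± 0.19 (edgeR unadjusted p = 0.109, adjusted p = 0.698). Without shTPX2 1 it was 0.20 (edgeR unadjusted p = 0.501). The groups did not overlap and shTPX2 1 was the highest library.

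At the other end lay RPL22L1, with 19.2 and 37.1 TPM in shNC cells and 19.2 and 21.1 TPM in shTPX2 cells. Its log2 fold change of -0.35 ± 0.31 rested on shNC 2, since the other 3 libraries were nearly equal: without shNC 2 it was 0.17 (edgeR unadjusted p = 0.509), and without shNC 1 it was -0.74 (edgeR unadjusted p = 0.0113). RPS12, a 40S protein gene, had 1914 and 2044 TPM in shNC cells and 1784 and 1451 TPM in shTPX2 cells, with a log2 fold change of -0.16 ± 0.19 (-0.005 without shTPX2 2). RPL37, RPL27A and RPS27A had log2 fold changes of -0.16, -0.14 and -0.12, each smaller than its standard error. No member below 0 passed a criterion.

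The P stalk, which recruits the elongation factors to the ribosome, is formed by RPLP0 and by RPLP1 and RPLP2. RPLP0 was measured at 4247 and 3423 TPM in shNC cells and 4281 and 3068 TPM in shTPX2 cells. RPLP1 had 2485 and 2089 TPM in shNC cells and 2257 and 1729 TPM in shTPX2 cells, and RPLP2 had 2174 and 2211 TPM in shNC cells and 2184 and 1849 TPM in shTPX2 cells. In all 3 the lowest library was shTPX2 2, and shTPX2 1 lay within or near the shNC range. The log2 fold changes were 0.06, -0.07 and 0.01 with standard errors of 0.26, 0.22 and 0.19. Their signs turned on single libraries. They were -0.22, -0.30 and -0.14 without shTPX2 1, and 0.30, 0.12 and 0.14 without shTPX2 2. RPL12, which binds at the base of this stalk, is the member with the largest fold change, and whether it differs from the stalk proteins was not tested.

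RPL5 and RPL11, the proteins of the 5S particle, had log2 fold changes of 0.09 ± 0.20 and 0.07 ± 0.18. RPL5 was measured at 1261 and 1063 TPM in shNC cells and 1218 and 1056 TPM in shTPX2 cells. RPL11 was measured at 2081 and 1968 TPM in shNC cells and 2047 and 1847 TPM in shTPX2 cells. The groups overlapped on the TPM scale in both. RPS6, the substrate of the S6 kinases downstream of mTOR, had 2566 and 2386 TPM in shNC cells and 2547 and 2218 TPM in shTPX2 cells, and its log2 fold change was 0.07 ± 0.19. RPS3, a 40S protein that also takes part in DNA repair, had 2080 and 1814 TPM in shNC cells and 2119 and 1736 TPM in shTPX2 cells, and its log2 fold change was 0.11 ± 0.21. For RPS3 the shNC values lay inside the range of the shTPX2 values.

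FAU and RACK1 encode ribosomal proteins under symbols that the rule did not take. FAU, a ubiquitin-like protein fused to the small subunit protein eS30, had 863 and 859.7 TPM in shNC cells and 883 and 915 TPM in shTPX2 cells (log2 fold change 0.18 ± 0.16). RACK1, the scaffold on the head of the 40S subunit, had 4129.7 and 3406 TPM in shNC cells and 4112 and 3371 TPM in shTPX2 cells (log2 fold change 0.11 ± 0.23). RPS27A, the member made as a fusion with ubiquitin, had 1268 and 1252 TPM in shNC cells and 1191 and 934 TPM in shTPX2 cells (log2 fold change -0.12 ± 0.20). None of these 3 passed a criterion.

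Several members have a paralog, and these pairs were compared as shares of mRNA. Whether a paralog takes the place of its partner in the ribosome was not measured. RPL36AL made up 28.9% and 30.7% of the summed RPL36A and RPL36AL TPM in shNC and 31.6% and 43.8% in shTPX2. RPL36A itself had 1028 and 1135 TPM in shNC cells and 1057 and 808 TPM in shTPX2 cells, with a log2 fold change of -0.09 ± 0.21. Both shTPX2 shares were above both shNC shares, and most of the difference lay in shTPX2 2, in which RPL36AL was highest and RPL36A lowest (difference of the means 7.87 percentage points, n = 2 per group, exact two-sided permutation p = 0.333, the smallest possible). RPL7L1 made up 6.54% and 6.29% of the RPL7 pair in shNC and 8.02% and 7.01% in shTPX2 (exact two-sided permutation p = 0.333, n = 2 per group). The other 4 pairs overlapped between groups. RPL22L1 was 4.77% and 9.33% of its pair in shNC and 4.69% and 6.07% in shTPX2, RPL39L was 1.35% and 2.25% in shNC and 1.93% and 1.97% in shTPX2, and RPL26L1 and RPS27L did not exceed 3.62% and 1.26% in any library. Over the 6 pairs every exact permutation p was 1.0 after Benjamini-Hochberg adjustment.

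RPL39L and RPL22L1 were the members with the widest spread in shNC. RPL39L, a paralog known for its expression in testis and in tumours, was measured at 39.6 and 79.6 TPM in shNC cells and 60.5 and 60.5 TPM in shTPX2 cells. The shTPX2 libraries were equal and lay midway between the shNC libraries, and the log2 fold change was 0.15 ± 0.33. It turned from 0.71 without shNC 2 (edgeR unadjusted p = 0.022) to -0.25 without shNC 1 (edgeR unadjusted p = 0.291). TPX2 itself was higher in shNC 2 than in shNC 1 in the same way, as given above. RPS27L, a p53 target, had 27.6 and 32.5 TPM in shNC cells and 22.1 and 42.0 TPM in shTPX2 cells, so that the 2 shTPX2 libraries held both the lowest and the highest value.

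The pairs differ in how much sequence separates them, which bears on how reads could be assigned. The coding sequences of RPL36A and RPL36AL in GENCODE v29 have 318 bases each and differ at 32 of them (89.9% identity), and those of RPL39 and RPL39L have 153 bases each and differ at 8 (94.8% identity). RPS27 and RPS27L share 77.8% of 252 bases and RPL26 and RPL26L1 share 84.1% of 435 bases.

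**Figure D4:**
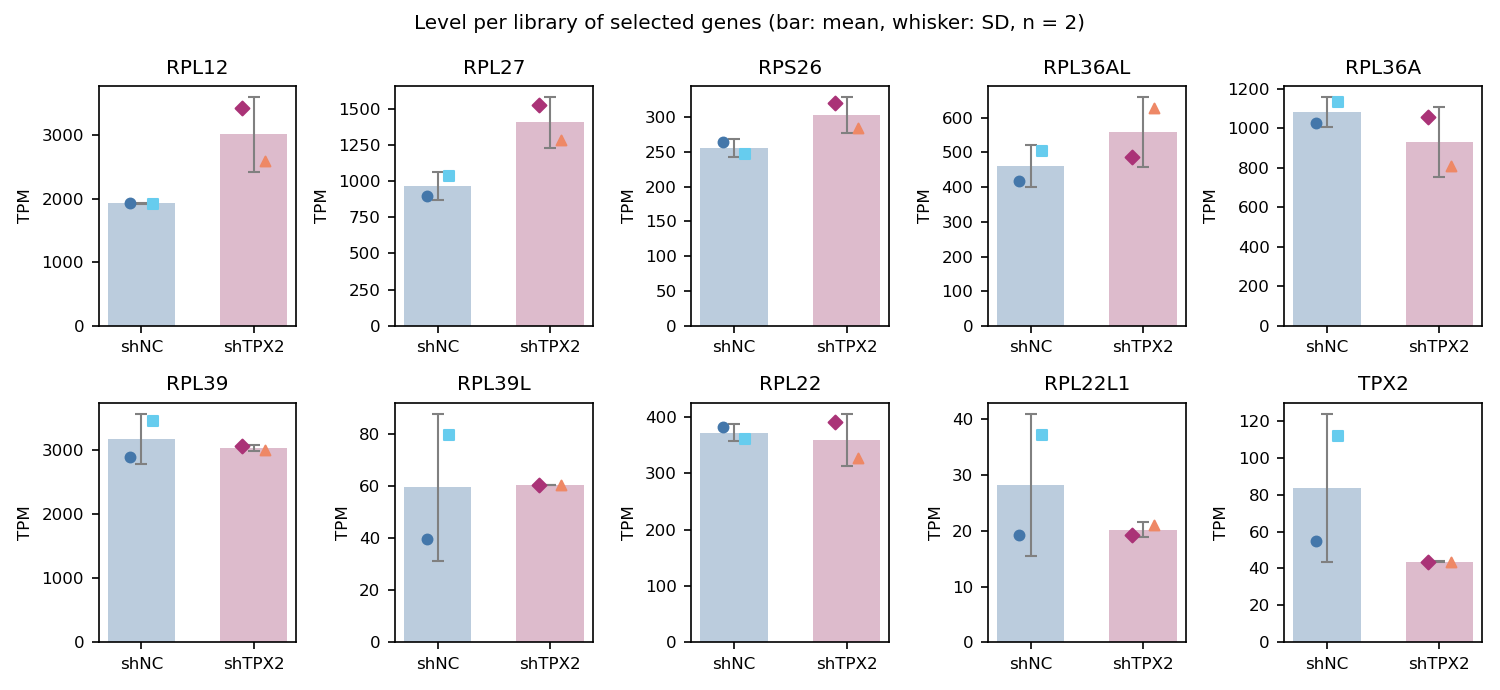
TPM per library (shNC 1 circles, shNC 2 squares, shTPX2 1 diamonds, shTPX2 2 triangles), group mean (bar) and SD (whisker, n = 2) of the 4 members that met the criteria of the study, of paralog pairs, and of TPX2. RPL12 and RPL27 are higher in both shTPX2 libraries, RPL36AL and RPL36A move apart in shTPX2 2, and RPL39L, RPL22L1 and TPX2 are highest in shNC 2.

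Members were also compared by their shared features, as a description. The 47 members with a C start and 4 pyrimidines had a median log2 fold change of 0.06 and the 20 members with an entry but without that start had a median of 0.185. The 28 members with a small nucleolar RNA gene inside had a median of 0.04 and the other 55 a median of 0.09. The 65 members above 1000 TPM had a median of 0.07 and the other 18 a median of 0.08.

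The genes that make and assemble ribosomes were read beside the members. For the counts above 0 in this and the following lists, the share of all tested genes above 0 was 48.8%. For 40S assembly factors, 33 of 37 were above 0 with a median log2 fold change of 0.26, 8 were higher at an unadjusted edgeR p under 0.05 (21.6%, against 3.13% of all tested genes) and none was lower (against 4.9%). NOB1, the endonuclease that makes the final cut in the 18S ribosomal RNA, was measured at 47.9 and 40.8 TPM in shNC cells and 77.2 and 75.4 TPM in shTPX2 cells. The groups stood well apart, and the log2 fold change was 0.91 ± 0.17 (SE, n = 2 per group; edgeR unadjusted p = 0.00167, adjusted p = 0.439). For 60S assembly factors, 30 of 37 were above 0 with a median of 0.19 (0.12 with 25 above 0 without shNC 2), 7 were higher and 1 was lower at that p. MRTO4, which holds the place of RPLP0 on the immature subunit, had 21.9 and 17.3 TPM in shNC cells and 29.8 and 30.5 TPM in shTPX2 cells, and its log2 fold change was 0.74 ± 0.20 (SE, n = 2 per group; edgeR unadjusted p = 0.00921, adjusted p = 0.579). These counts depended on single libraries: the 8 became 1 without shNC 2, 5 without shTPX2 1 and 3 without shTPX2 2, and the 7 became 2, 3 and 3, while the share of all tested genes called higher became 3.66%, 2.53% and 1.57%. Without shNC 1, where that share was 6.34%, they were 8 and 10. The scaling also moved the 8, to 4 with upper-quartile factors and with library size alone (against 2.63% and 2.05% of all tested genes). The count was also 4 with quantile normalization (against 3.05%), where limma after voom took the place of edgeR. No gene of either list passed an adjusted p of 0.05 in edgeR, while DESeq2 called NOB1 (adjusted p = 0.0153), where it called 0.235% of all tested genes higher.

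RNA polymerase I and its factors, which transcribe the ribosomal RNA genes, had 10 of 15 genes above 0, a median of 0.17 (0.08 without shNC 2 or without shTPX2 1) and none at an unadjusted edgeR p under 0.05, while 3 were higher without shNC 1 (where 6.34% of all tested genes were) and 1 was lower without shTPX2 1 (where 4.47% were). POLR1C, a subunit shared with RNA polymerase III, came nearest at 34.5 and 27.0 TPM in shNC cells and 38.3 and 42.5 TPM in shTPX2 cells (log2 fold change 0.51 ± 0.21, edgeR unadjusted p = 0.0502). Leaving out 1 library in turn gave 0.33 without shNC 2 to 0.71 without shNC 1, with unadjusted edgeR p-values from 0.0196 without shNC 1 to 0.215 without shTPX2 2. With TMM factors computed without the members edgeR gave an unadjusted p of 0.0498, and with no filter on low counts 0.0483. Of the 6 chaperones of ribosomal proteins 5 were above 0 with a median of 0.30 (0.17 without shTPX2 2) and none passed, while 1 was higher at that p without shNC 2 (against 3.66% of all tested genes). GRWD1, which escorts RPL3, had a log2 fold change of 0.34 ± 0.21, or 0.17 without shNC 2.

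Among 33 initiation factors 24 were above 0 with a median of 0.18, and none had an unadjusted edgeR p under 0.05. The median was 0.06 without shNC 2 and 0.07 without shTPX2 1, and without shNC 1 4 factors were higher and 1 lower at that p, where 6.34% and 7.88% of all tested genes were. EIF4A2, an RNA helicase of the cap complex, was measured at 323 and 524 TPM in shNC cells and 246 and 277 TPM in shTPX2 cells. Both shTPX2 libraries were below both shNC libraries, and the log2 fold change was -0.57 ± 0.25 (edgeR unadjusted p = 0.0604). The unadjusted p was 0.0377 with DESeq2 and 0.0475 with library size alone. Its size depended on which shNC library was kept, at -0.86 without shNC 1 (edgeR unadjusted p = 0.00528) and -0.21 without shNC 2 (edgeR unadjusted p = 0.369). The 9 elongation and termination factors had a median of 0.10 (0.002 without shNC 2 and 0.25 without shNC 1) and none at that p, with EEF1E1 nearest at 0.35 ± 0.21 (0.21 without shNC 1). The 18 other mRNAs known for a 5′-TOP motif, FAU and RACK1 among them, had a median of 0.03, 11 above 0 and none at that p, with EIF4B nearest at -0.26 ± 0.20 (-0.11 without shNC 1). For these mRNAs the sign of the median turned on single libraries, from -0.12 with 4 above 0 without shNC 2 and -0.09 with 5 above 0 without shTPX2 1 to 0.17 with 16 above 0 without shNC 1 and 0.16 with 14 above 0 without shTPX2 2. It was -0.03 with library size alone and -0.06 with quantile normalization.

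Of 10 tested regulators of 5′-TOP mRNAs 8 were above 0 with a median of 0.23, which was 0.05 with 6 above 0 without shTPX2 1 and 0.12 with 7 above 0 without shNC 2. EIF4EBP2, an inhibitor of the cap-binding protein eIF4E, was the 1 with an unadjusted edgeR p under 0.05 (against 3.13% of all tested genes higher), at 39.2 and 46.1 TPM in shNC cells and 57.9 and 62.3 TPM in shTPX2 cells. The groups did not overlap, and its log2 fold change was 0.62 ± 0.17 (SE, n = 2 per group; edgeR unadjusted p = 0.0100, adjusted p = 0.579). At that p 3 of the 10 were higher without shNC 1 (against 6.34% of all tested genes) and 2 without shTPX2 2 (against 1.57%).

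The 79 mitochondrial ribosomal protein genes, which build the ribosome of the organelle, had 72 genes above 0 with a median of 0.24, and 11 were higher (13.9%, against 3.13% of all tested genes) and none lower (against 4.9%) at an unadjusted edgeR p under 0.05. MRPL12 was measured at 166 and 167 TPM in shNC cells and 231 and 241 TPM in shTPX2 cells. The libraries of each group were nearly equal and the groups stood apart (log2 fold change 0.63 ± 0.16, SE, n = 2 per group; edgeR unadjusted p = 0.00608, adjusted p = 0.576). The 11 became 12 without shNC 1, 4 without shNC 2, 3 without shTPX2 1 and 1 without shTPX2 2, where 6.34%, 3.66%, 2.53% and 1.57% of all tested genes were called higher, and 5 with library size alone, where 2.05% were. Over all alternatives tried the median of the mitochondrial list ran from 0.18 to 0.29, while that of the cytosolic members ran from -0.05 to 0.18, and the difference between the 2 lists was not tested.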

How the data were processed

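Poly(A)-selected RNA of 4 PC9 libraries (shNC 1 and 2, shTPX2 1 and 2) was sequenced by the authors. The paper names SOAPnuke for cleaning, HISAT2/Bowtie2 for alignment and RSEM or StringTie for quantification, while the submitters' processing notes name HISAT2, featureCounts, DESeq2 and the build GRCh38. Which was used, the annotation and the strand setting are not given in the sources used here. For each library the authors deposited expected counts without normalization, which were not whole numbers for 42.15% to 44.6% of genes, so reads of similar genes were shared out. The authors also deposited TPM values, scaled to the same total in each library, and FPKM values, divided by length and by the library's reads. Columns named as group averages in the deposited table equalled the mean of the 2 libraries within 0.006 for at most 8.27% of genes and were not used. They came out as whole multiples of 0.01 (within 1e-05) after multiplication by 3 in shNC (99.39% to 100.0% of genes) and by 4 in shTPX2 (100.0%), so they may average libraries that were not analysed here, and whether each group of the study held only these 2 libraries is not settled.

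After rounding, these counts were filtered with filterByExpr (14048 genes; all 83 members passed). All genes were tested in R 4.3.3 with edgeR 4.0.16 (quasi-likelihood test), TMM factors from 0.959 to 1.05 and Benjamini-Hochberg adjustment, with group as the only term. The criteria of the study were applied with limma 3.58.1 after voom. The standard error was the log2 fold change divided by the root of its F statistic. Whether groups overlapped was read from TMM-scaled counts unless TPM is named. The common dispersion was 0.0485, so the spread between libraries limits precision more than depth does. Both tests were also run on simulated counts, from which no value is given here. Sequences were taken from RefSeq (GRCh38.p14) and GENCODE v29, and protein sequences were not used here.

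Named genes were TPX2, the 5 most abundant members, the 5 higher and 5 lower members with the smallest p, RPLP0 to RPLP2, RPL5, RPL11, RPS6, RPS3, RPS27A, FAU, RACK1, the paralog pairs, the members at the criteria of the study, and the gene with the smallest p of each other list, and some genes that fit this rule are not reported here. RPSA, RPL6, RPL13, RPL23A, RPS4X and RPS29 were named after their values were seen. The members and lists were chosen with earlier results of these data known. The alternatives were other scalings, DESeq2 1.42.0, other filters, the replicate number as a block, adjusted p-values and leaving out each library. Quantile normalization was tested with limma after voom and not with edgeR.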

Additional observations from a re-analysis of the deposited data

How the results depend on the processing

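No member passed an adjusted p of 0.05 under any of the 13 alternatives, and RPL12 and RPL27 passed an unadjusted p of 0.05 in 12 of them, the exception being the fit without shTPX2 1. Without 1 library in turn, with the lone library assumed to vary like the other group, the number of members at an unadjusted edgeR p under 0.05 ran from 0 to 3 (2 with all libraries; 0% to 3.61% of the members, against 4.04% of all tested genes without shTPX2 2 to 14.2% without shNC 1), the number at the criteria of the study from 3 to 6 (4 with all libraries; 3.61% to 7.23% of the members, against 7.83% to 23.8% of all tested genes), the median log2 fold change from -0.05 to 0.18 and the difference in the share of reads from -0.421 to 0.615 percentage points. The number at the criteria of the study was 2 under quantile normalization and 2 under library size only (2.41% of the members each, against 13.6% and 14.4% of all tested genes) and 0 when the p was adjusted (against 0.00712%). The share of TPM and that of FPKM each differed by -0.235 percentage points, with an exact permutation p of 1.0 (n = 2 per group), opposite in sign to the share of reads.

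The labels give the libraries numbers but no shared culture or day, so the numbers were not taken to pair them. The differences of library 1 minus library 2 correlated between the groups with r = 0.173 across 14048 genes and r = 0.41 across the 83 members, which are not independent replicates. With the replicate number as a block (replicate block), 5 members had an unadjusted edgeR p under 0.05 (RPL12, RPL27, RPL36AL and RPS26 among them; 6.02%, against 9.63% of all tested genes), 7 met the criteria of the study (8.43%, against 17.4%), none passed an adjusted p of 0.05 and the median log2 fold change was 0.07. In that fit EIF4A2 had an unadjusted edgeR p of 0.0284, and 3 of the 33 initiation factors and 3 of the 10 regulators of 5′-TOP mRNAs were higher at that limit (against 4.15% of all tested genes) and 1 initiation factor was lower (against 5.48%).

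Of 40 named genes not past an unadjusted p of 0.05, 25 changed sign under at least 1 alternative, and none of the other 7 did. Apart from TPX2, those 7 were named for their small p in these same libraries. That they kept their sign is therefore no separate support. TPX2 lost an unadjusted p under 0.05 without shNC 2, without either shTPX2 library, with quantile normalization and with no filter. Its log2 fold change fell from -0.81 to -0.25 without shNC 2. In the other settings it stayed about as large: -0.83 without shTPX2 1, -0.79 without shTPX2 2, -0.78 with quantile normalization and -0.79 with no filter. With 2 libraries per group, differences smaller than the spread between libraries could go undetected.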
